A study of Mus musculus with 6 samples.

Results

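The genes of the cytosolic ribosomal proteins were examined in liver RNA from male mice fed a high-fat diet. Members were the rows whose symbol has the form of a cytosolic ribosomal protein gene (Rpl or Rps with a number, Rplp0 to Rplp2, or Rpsa), without pseudogene symbols and without the Rps6k kinase genes. They were 94 of the 55487 genes in the tables. Of these, 77 encode the canonical proteins, 46 of the large and 31 of the small subunit, and the remaining 17 carry related symbols: paralogs such as Rpl22l1 and Rps27l, retrotransposed or tissue-restricted copies such as Rps27rt and Rpl3l, and Rps19bp1, whose product binds a ribosomal protein and is not one itself. In abundance the canonical genes fitted their label: 73 of the 77 canonical genes had a mean of at least 100 TPM (a level per transcript length that sums to the same total in each library), with a median of 339 TPM.

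The study set 3 mutant livers against 3 control livers, all of male C57/Bl6J mice on the diet, with ages not given in the labels. The genotype label of the mutants is RXRa f/f Alb cre+/-, and that of the controls is Alb cre +/-, so by these labels both groups carry a Cre recombinase driven by the hepatocyte promoter of albumin, and neither is free of Cre. The sample titles name only the mutants Cre and call the controls WT, and the design text names an Rxra S65A mutant, so the exact allele cannot be read from the labels. Rxra encodes RXRα, a dimer partner for many nuclear receptors of liver metabolism. Rxra itself had 610 ± 88.7 CPM (counts scaled to the library total, here with edgeR's TMM composition scaling) in mutant livers and 462 ± 44.4 in control livers (SD, n = 3 each), a difference that missed the threshold (edgeR adjusted p = 0.0724). The direction for Rxra depended on the scaling. At plain library totals, without TMM, its log2 fold change was 0.0076 (edgeR adjusted p = 0.969). On the log2(TPM + 1) scale it was -0.20 (limma adjusted p = 0.240). The values of Rxra do not show which form of the receptor was made.

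Ribosomal proteins assemble with ribosomal RNA into the small subunit, which decodes the message, and the large subunit, which joins amino acids. Each canonical protein is present in a single copy in most ribosomes, apart from the acidic stalk proteins. In vertebrates the messages of ribosomal protein genes begin with a C followed by a run of C and T, the terminal oligopyrimidine (TOP) tract. Through this tract mTORC1 and the protein LARP1 set how strongly these messages are translated. The liver, which exports large amounts of plasma protein, is rich in ribosomes, and most of its ribosomal protein messages come from hepatocytes.

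The bases around the annotated starts of 10 members are shown because the TOP tract is the sequence that the family is known to share. Each line runs from 30 bases before the RefSeq start to 20 bases from the start on (build GRCm38.p6), on the transcript's strand, with the unbroken run of C and T at the start in capitals where the start is a C followed by at least 4 more C or T.
Rps6: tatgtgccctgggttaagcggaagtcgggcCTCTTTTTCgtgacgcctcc
Rps10: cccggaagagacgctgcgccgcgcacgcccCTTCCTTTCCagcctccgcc
Rps18: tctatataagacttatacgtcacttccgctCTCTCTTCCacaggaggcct
Rpl28: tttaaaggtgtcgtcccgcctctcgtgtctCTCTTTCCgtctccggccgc
Rpl38: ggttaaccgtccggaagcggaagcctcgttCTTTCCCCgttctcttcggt
Rplp2: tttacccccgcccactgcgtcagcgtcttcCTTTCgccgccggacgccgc
Rps27: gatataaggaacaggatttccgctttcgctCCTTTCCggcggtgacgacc
Rps27rt: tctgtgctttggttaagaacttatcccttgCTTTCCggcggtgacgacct
Rpsa: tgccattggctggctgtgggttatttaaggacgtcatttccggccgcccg
Rpl4: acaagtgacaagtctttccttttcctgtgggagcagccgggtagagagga
The first 5 windows lie at chr4:86857348-86857397 on the minus strand for Rps6, chr17:27635225-27635274 on the minus strand for Rps10, chr17:33955646-33955695 on the minus strand for Rps18, chr7:4792935-4792984 on the plus strand for Rpl28, chr11:114668550-114668599 on the plus strand for Rpl38. The other 5 lie at chr7:141447621-141447670 on the plus strand for Rplp2, chr3:90213629-90213678 on the minus strand for Rps27, chr9:114982720-114982769 on the minus strand for Rps27rt, chr9:120127736-120127785 on the plus strand for Rpsa, chr9:64173357-64173406 on the plus strand for Rpl4. Rpsa and Rpl4, the members with the smallest p-values, have no such run at the annotated base in this table. Of the 77 canonical genes, 57 matched a row of the RefSeq promoter table by symbol. A C followed by at least 4 C or T at an annotated start was found in 13 of these 57 (22.8%), against 3.01% of the 27025 genes in the table, read on the transcript's strand alone. A run of at least 7 such bases led by a C, anywhere within 30 bases of a start, was found in 35 of the 57 (61.4%), against 29.7% of all genes in the table. The 13 genes with the tract at the start had a median log2 fold change of 0.35 and the 44 without it 0.41, given as a description.

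Relative to the typical gene of the liver, the family stood higher in the mutants. With TMM scaling, which sets the typical gene equal in all libraries, 39 of the 87 members with enough counts to test rose in the mutant livers and 0 fell (edgeR's quasi-likelihood test, adjusted p under 0.05). Over all 14286 tested genes, 6.64% were called higher and 6.82% lower. The median log2 fold change of the 87 was 0.40, a 1.32-fold difference, with quartiles of 0.31 and 0.48, against 0.00 over all tested genes. All 3 mutant libraries lay above all 3 control libraries for 68 of the 87 members, where 17.4% of all tested genes did so, and for 0 members did they lie below, where 17.5% of all genes did so. The 7 members not tested, Rpl10l, Rpl32l, Rpl39l, Rpl3l, Rpl6l, Rps3a2 and Rps3a3, were all close to absent, and Rpl10l was listed at 0 in all 6 libraries. The count of 39 moved with the libraries used: it was 4 when mutant replicate 1 was left out, 11 when mutant replicate 2 was, 54 when mutant replicate 3 was, and 9, 9 and 6 when control replicates 1, 2 and 3 were. The share of all tested genes called higher was 2.87%, 4.64% and 5.10% without mutant replicates 1, 2 and 3, and 3.11%, 3.18% and 3.16% without control replicates 1, 2 and 3. DESeq2 called 50 members higher (7.33% of the 16104 genes it gave an adjusted p were higher, 8.61% lower) and 0 lower, and edgeR without a filter on low counts called 46 of 93 higher (4.76% of all genes higher, 5.45% lower) and 0 lower.

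**Figure D1:**
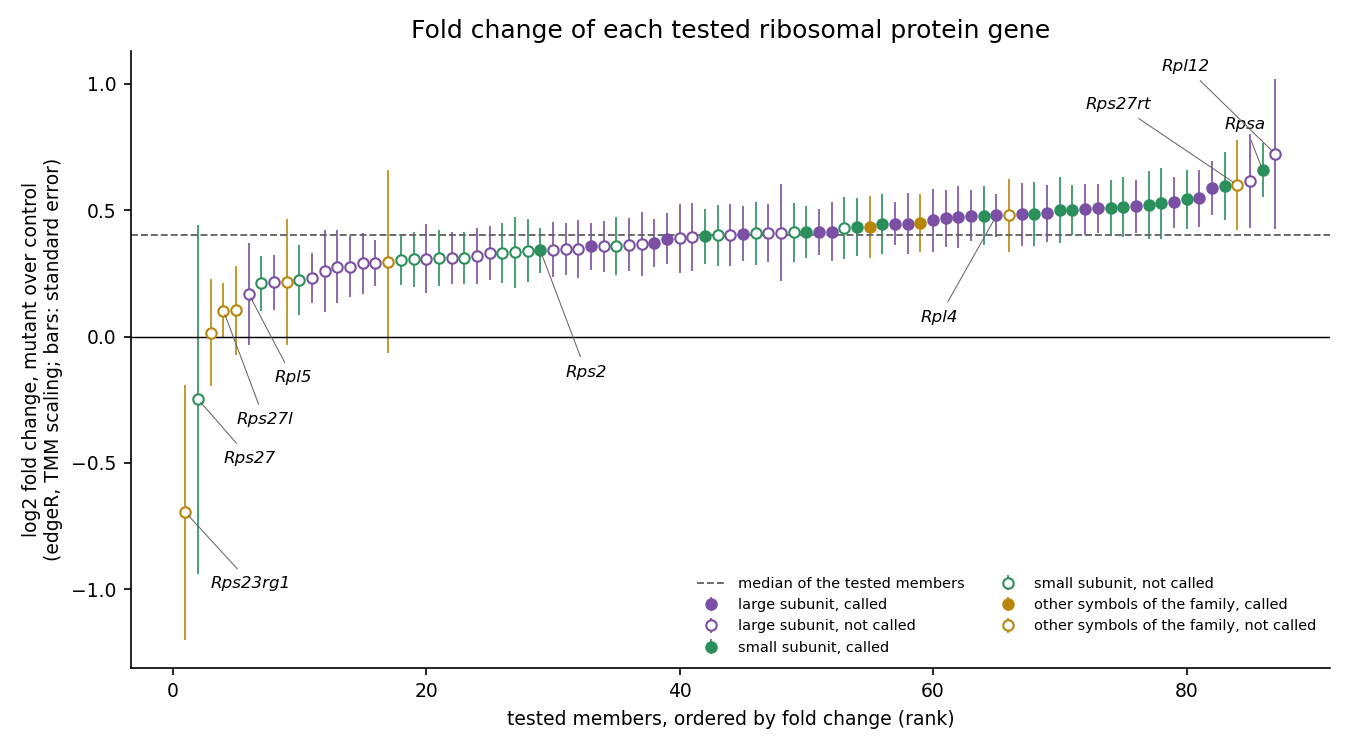
Log2 fold change, mutant over control, of the 87 tested members (edgeR with TMM scaling), ordered by size along the horizontal axis, with bars for the standard error. Filled points passed the test at an adjusted p under 0.05, colours give the subunit or other symbols, and the dashed line is the median of 0.40. Most members lie close to that line, and the 2 below 0, Rps23rg1 and Rps27, have wide bars.

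Of the small subunit genes, 16 of 31 rose and 15 did not pass, with a median log2 fold change of 0.41. Rpsa, whose product sits on the solvent side of the small subunit and is also known as the laminin receptor precursor, had the smallest p of the family. It measured 354, 385 and 320.1 TMM-scaled CPM in mutant replicates 1 to 3, against 237, 233 and 201 in control replicates 1 to 3. The groups did not overlap, and the log2 fold change was 0.66 ± 0.11 (SE; edgeR adjusted p = 0.00706). Rps27a, which encodes a small subunit protein fused to ubiquitin, had 143, 143 and 126 CPM in mutant livers and 102, 98.8 and 90.1 CPM in control livers, again without overlap (log2 fold change 0.50 ± 0.10, edgeR adjusted p = 0.0150). Rps6, the substrate of the S6 kinases downstream of mTORC1, had 233, 267 and 188 CPM in mutant livers and 169.9, 153 and 164 CPM in control livers. It rose by 0.50 ± 0.13 on the log2 scale (edgeR adjusted p = 0.0403), with mutant replicate 3 nearest to the controls. Rps2, the small subunit member with the highest TPM, had the smallest change among the called members: 537, 558 and 505 CPM in mutant livers and 428, 441 and 394 CPM in control livers (log2 fold change 0.34 ± 0.09, edgeR adjusted p = 0.0400).

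Of the large subunit genes, 21 of 46 rose and 25 did not pass, with a median log2 fold change of 0.40. Rpl4, a core protein that lines the exit tunnel, had 423, 428 and 385 CPM in mutant livers, against 302, 296 and 289 CPM in control livers. Its control libraries lay close together, and the log2 fold change was 0.48 ± 0.09 (edgeR adjusted p = 0.0105). Rpl13, another protein of the large subunit, had 174, 187 and 175 CPM in mutant livers and 128, 136 and 114 CPM in control livers (0.51 ± 0.10 on the log2 scale, edgeR adjusted p = 0.0135). Rpl36, Rpl7a and Rpl8 completed the large subunit genes among the 8 smallest p-values, with log2 fold changes of 0.53, 0.45 and 0.50 and adjusted p-values of 0.0130, 0.0138 and 0.0160 in edgeR, and Rpl27a is described with its copies. Rpl35, a large subunit protein near the exit of the tunnel, had 89.3, 116.8 and 80.6 CPM in mutant livers and 66.7, 72.2 and 48.2 CPM in control livers. The groups did not overlap, but its log2 fold change of 0.61 ± 0.18, the third highest of the family, missed the threshold (edgeR adjusted p = 0.0616). Rpsa, Rpl4, Rpl13 and Rpl27a were the 4 members called in every one of the 6 fits that left out a library, but Rpl13 lost its call when summed with its near-identical copies (0.40 ± 0.12, edgeR adjusted p = 0.0545), which held 24.6% of the summed TPM.

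The stalk of the large subunit recruits translation factors and is built from Rplp0 and pairs of Rplp1 and Rplp2. Rplp0, its base, had 364, 402 and 303 CPM in mutant livers and 280.2, 255 and 236 CPM in control livers, and rose by 0.47 ± 0.12 (edgeR adjusted p = 0.0400). Rplp1 had 195, 202 and 174 CPM in mutant livers and 142, 145 and 141 CPM in control livers, and rose by 0.41 ± 0.09 (edgeR adjusted p = 0.0222). Rplp2 had 85.3, 96.9 and 78.0 CPM in mutant livers and 72.7, 71.0 and 55.1 CPM in control livers, and its log2 fold change, 0.39 ± 0.14, missed the threshold (edgeR adjusted p = 0.0977), though the groups did not overlap. The 3 values lie within their errors of each other. Rpl11 and Rpl5, whose products bind 5S ribosomal RNA and restrain Mdm2 when ribosome assembly fails, did not pass. Rpl11 had 179.7, 212 and 175 CPM in mutant livers and 151, 151 and 140.4 CPM in control livers (0.36 ± 0.10, edgeR adjusted p = 0.0531), and Rpl5 is described with its copies.

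Per transcript length, the most abundant members over all 6 libraries were Rpl41 (927 TPM), Rplp1 (820.2 TPM), Rps2 (774 TPM), Rps27rt (755 TPM) and Rpl13a (696 TPM). Rpl41, which encodes a very short basic protein, had 926, 942 and 714 TPM in mutant livers and 1023, 1046 and 909 TPM in control livers, and mutant replicate 3 was below the other 5 libraries. On the TMM scale it stood at 0.39 ± 0.14 and missed the threshold (edgeR adjusted p = 0.0943). Rpl13a, a large subunit protein also known from the GAIT complex that silences inflammatory messages, had 250.8, 284 and 227 CPM in mutant livers and 182, 184 and 157 CPM in control livers. It rose by 0.55 ± 0.11 (edgeR adjusted p = 0.0184).

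The 77 canonical genes moved together from library to library. Relative to each gene's mean over the 6 libraries on the TMM-scaled log2 scale, the median deviation of the family was 0.26, 0.32 and 0.01 in mutant replicates 1 to 3 and -0.14, -0.16 and -0.29 in control replicates 1 to 3, while the median over all tested genes stayed within 0.01 of 0 in each library. Mutant replicate 3 was the lowest mutant library for 75 of the 77 genes, and control replicate 3 the lowest control library for 64. Mutant replicate 2 was the highest mutant library for 67. The typical canonical gene had an SD between libraries of a group of 0.146 on the log2 scale, which became 0.0708 once the family's median was taken off each library. Over all tested genes the typical SD was 0.239 before and 0.239 after the same step. That step could hardly change it, since TMM already put the median of all tested genes near 0 in each library. The unchanged value is therefore no test of the family's coordination. The canonical genes also lay close to one another in fold change, with an interquartile range of 0.15 against 0.62 over all tested genes. The SD of these fold changes over genes was 0.191 against 0.731. All tested genes were not matched to the family in abundance.

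**Figure D2:**
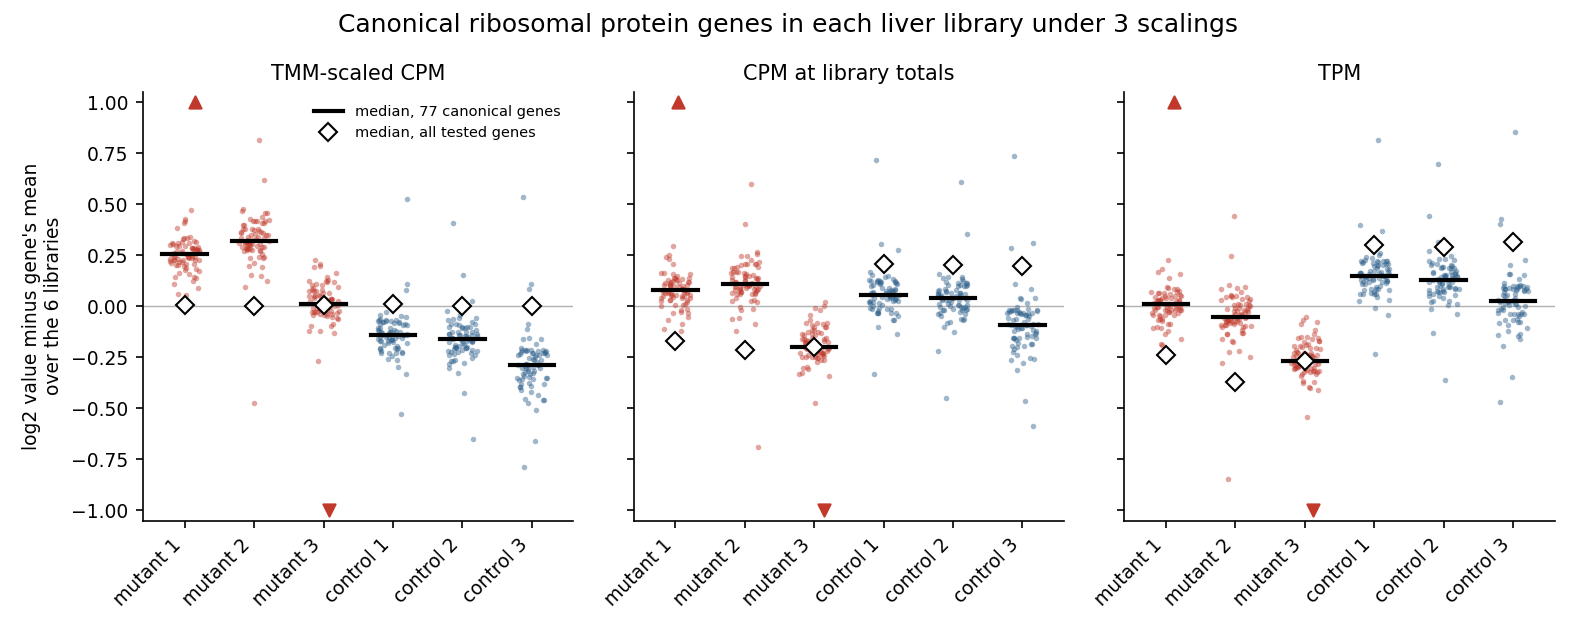
Log2 value of each of the 77 canonical genes minus that gene's mean over the 6 libraries (vertical axis), for mutant replicates 1 to 3 (red) and control replicates 1 to 3 (blue), on 3 scales. Black bars are medians of the family, open diamonds medians of all tested genes, and triangles at the edges are values of Rps27 beyond the axis. The points of a library move as a block: on the TMM scale the family's median lies at 0.26, 0.32 and 0.01 in the mutants and at -0.14, -0.16 and -0.29 in the controls, whereas in TPM it lies at 0.01, -0.05 and -0.27 in the mutants and at 0.15, 0.13 and 0.03 in the controls.

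This was not a property of the canonical genes alone. The 32 proteasome genes, which encode another many-part machine, had a typical within-group SD of 0.0938 that became 0.0719 after centring on their own medians. For the 78 mitochondrial ribosomal protein genes the SD was 0.141 before and 0.104 after, for 36 translation factors 0.114 and 0.0875, and for 42 ribosome biogenesis genes 0.184 and 0.172. The interquartile range of the fold changes was 0.11 for the proteasome, narrower than the 0.15 of the canonical genes. It was 0.21 for mitochondrial ribosomal proteins, 0.24 for translation factors and 0.21 for ribosome biogenesis. The order of the lists depended on the measure. The SD over genes, from mean log2 values and not the edgeR fit, was 0.191 for the canonical genes. For the proteasome it was 0.144, for mitochondrial ribosomal proteins 0.170, for translation factors 0.181 and for ribosome biogenesis 0.192. These are descriptions of 6 libraries.

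The direction of the family depended on the scaling of the libraries. The TMM factors were 0.886, 0.863 and 0.866 in mutant replicates 1 to 3 and 1.14, 1.15 and 1.15 in control replicates 1 to 3, so that every gene stands 0.40 higher on the log2 scale in the mutants with TMM than at plain library totals. At library totals the median of all tested genes was -0.40. The calls over the whole table were then 293 higher and 4501 lower, against 949 and 974 with TMM. On that scale 0 of the 87 members were called in either direction by edgeR, where 2.05% of all genes were called higher and 31.5% lower, and 2 members had an unadjusted p under 0.05. Their median log2 fold change was 0.00, with 45 above 0 and 42 below. All mutant libraries lay above all controls for 2 members, Rpsa and Rpl27a (3.42% of all genes), and below them for 3, Rpl19, Rps23rg1 and Rps27l (48.2% of all genes). At library totals Rpsa had 314, 332 and 277 CPM in mutant livers and 271, 268 and 231 CPM in control livers, and its log2 fold change of 0.26 missed the threshold (edgeR adjusted p = 0.0878).

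In TPM the family stood lower in the mutants. With limma on log2(TPM + 1), 0 of 86 members were called higher and 24 lower, against 1.88% and 63.6% of the 11567 genes in that fit, so a smaller share of the members than of all genes was called lower. The median was -0.19, against -0.48 over all genes. In TPM all mutant libraries lay below all controls for 36 of the 87 members (64.5% of all genes) and above them for 0 (1.90%). Rps27l, a paralog of Rps27 known as a p53 target in human cells, was among the 24, with 423, 441 and 377 TPM in mutant livers and 574, 622 and 555 TPM in control livers (log2 fold change -0.50 on the log2(TPM + 1) scale, limma adjusted p = 0.00355). With TMM scaling it stood at 0.10 ± 0.11 (edgeR adjusted p = 0.593). The distance between the members' median and the typical gene, 0.40 with TMM and 0.40 at library totals, is fixed by construction, since the scales differ by 1 factor per library and, in TPM, 1 per gene. In limma it was 0.29, and 0.047 without a filter on low values, where the pseudocount and the set of genes are other.

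As a share of each library the members took 1.06%, 1.09% and 0.891% of the estimated counts in mutant livers and 1.04%, 1.03% and 0.941% in control livers. The means were 1.02 ± 0.109% and 1.00 ± 0.0536% (SD, n = 3 each; two-sided exact permutation p = 0.8, where 0.1 is the smallest p that 3 against 3 can give). Their share of TPM was 2.88%, 2.81% and 2.42% in mutant livers and 3.20%, 3.15% and 2.92% in control livers, and each mutant library lay below each control (2.71 ± 0.248% and 3.09 ± 0.148%, exact permutation p = 0.1). The major urinary protein (Mup) genes, which encode small pheromone carriers exported by male liver, took 14.2 ± 2.35% of the counts in mutant livers and 2.33 ± 0.666% in control livers, and 25.8 ± 3.30% and 4.90 ± 1.36% of TPM. With the Mup genes taken out of the total, the members' share of TPM was 3.79%, 3.99% and 3.18% in mutant livers and 3.42%, 3.29% and 3.04% in control livers (exact permutation p = 0.3), so the sign of the difference turned. Library totals without the Mup genes gave a median log2 fold change of 0.19 for the members and -0.21 for all genes, and 1 member called higher, Rpsa, where 2.82% of all genes were.

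**Figure D3:**
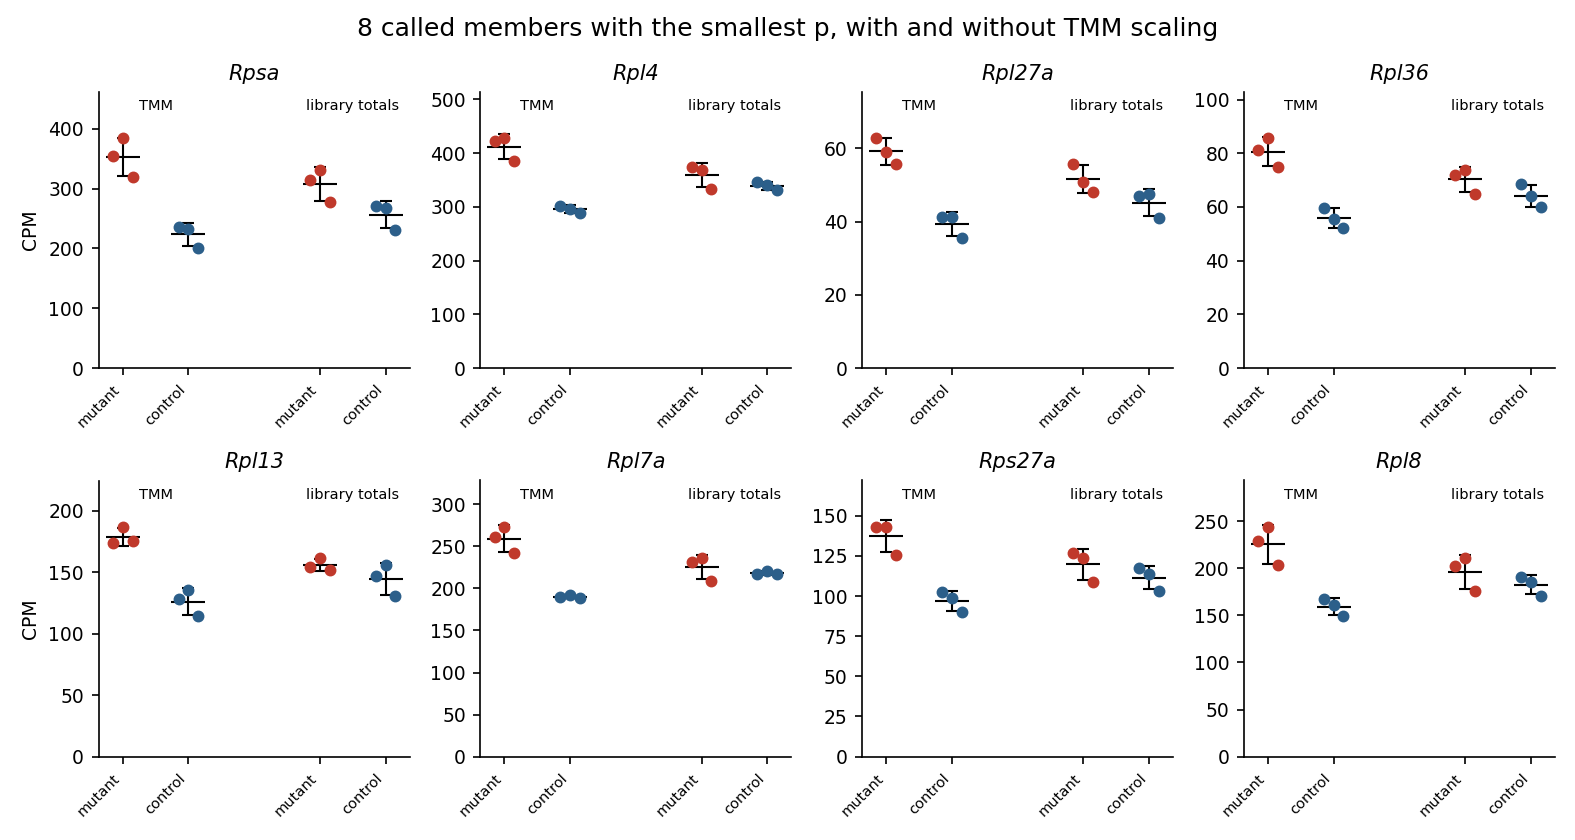
CPM of the 8 called members with the smallest p, with TMM scaling (left pair) and at library totals (right pair), mutant livers in red and control livers in blue, with bars for mean and SD (n = 3 each). With TMM the groups are apart for all 8, as for Rpsa at 354, 385 and 320.1 CPM in mutant livers and 237, 233 and 201 CPM in control livers, and at library totals the groups overlap for all but Rpsa and Rpl27a.

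Within each library, the balance of the subunits differed between the groups by less than the spread between replicates. The log2 ratio of summed TPM, small over large subunit, was -0.39, -0.41 and -0.44 in mutant livers and -0.40, -0.41 and -0.43 in control livers. The means were -0.413 ± 0.0275 and -0.414 ± 0.0174 (SD, n = 3 each; exact permutation p = 1), and this ratio does not depend on library scaling. When the libraries were scaled to the summed canonical genes themselves, 0 of the 87 members were called in edgeR in either direction, where 1.52% of all genes were called higher and 22.8% lower, and 1 member had an unadjusted p under 0.05. Differences of single members from the rest of the family were not detectable in that fit with 3 libraries a group.

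Members are short and abundant genes. By the length implied by the tables, 84 of the 87 lay in the shortest 25% of the tested genes, and by mean TPM 83 lay in the most abundant 25%. The other genes among the shortest 25% had a median log2 fold change of 0.09 with TMM, and 8.77% of them were called higher, and those among the most abundant 25% had 0.14 and 17.4%.

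Some members share their sequence with copies elsewhere in the genome, and their values are uncertain for that reason. In the GENCODE M21 transcripts, 308 annotated copies at other loci had at least 50% of their 31-base words in a canonical member, and 297 of these are annotated as processed pseudogenes. A mean of at least 10 TPM was listed for 22 of them, copies of 21 canonical genes, and for 11 of these genes the copies held more than 50% of the summed TPM. The copies named next were chosen after their values were seen. One such pair is Rps27 on chromosome 3 (90212522 to 90213651, minus strand, build mm10) and Rps27rt on chromosome 9 (114982366 to 114982739, minus strand), a retrotransposed copy that is itself a member. Their coding sequences are the same over all 255 bases and are printed once, with the start and stop codons in capitals, because no read inside them can be told apart.
Rps27 and Rps27rt: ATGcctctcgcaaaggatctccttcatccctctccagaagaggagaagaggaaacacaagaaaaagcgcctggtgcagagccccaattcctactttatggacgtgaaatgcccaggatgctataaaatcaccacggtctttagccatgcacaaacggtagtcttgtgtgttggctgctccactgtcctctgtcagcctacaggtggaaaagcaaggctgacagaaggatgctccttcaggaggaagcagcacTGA
Rps27 had 175, 44.0 and 12.6 TPM in mutant livers and 139, 128 and 143 TPM in control livers, while Rps27rt had 656, 832 and 777 TPM in mutant livers and 926, 726 and 614 TPM in control livers. Rps27 was thus even among the controls and spread widely among the mutants, and stood at -0.25 ± 0.69 on the log2 fold change scale (edgeR adjusted p = 0.852). Summed with its copies, Rps27 had 830.5, 877 and 789 TPM in mutant livers and 1065, 855 and 757 TPM in control livers. Rps27rt alone stood at 0.60 ± 0.18 and missed the threshold (edgeR adjusted p = 0.0591). The sum had a log2 fold change of 0.48 ± 0.14 (TMM scaling, edgeR adjusted p = 0.0588).

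Rpl5 on chromosome 5 was listed at 7.64, 8.14 and 7.01 TPM in mutant livers and 7.41, 11.9 and 11.5 TPM in control livers, far under the family's median. The transcribed pseudogene Gm15500 on chromosome 7, with 99.9% of its 31-base words in Rpl5, was listed at 359.6, 351 and 280.2 TPM in mutant livers and 375, 349 and 331 TPM in control livers. Summed with its copies, Rpl5 had a log2 fold change of 0.49 ± 0.12 and passed (TMM scaling, edgeR adjusted p = 0.0319), against 0.17 ± 0.20 alone (adjusted p = 0.635). Rpl12 was listed at 7.49, 11.4 and 7.92 TPM in mutant livers and 11.0, 7.62 and 6.03 TPM in control livers, and its copies held 97.2% of the summed TPM. Alone it had the highest log2 fold change of the tested members, 0.72 ± 0.30, which missed the threshold (edgeR adjusted p = 0.149), and summed with its copies 0.61 ± 0.12, which passed (adjusted p = 0.0132). Rpl10 and Rpl27a had 89.5% and 88.9% of their summed TPM in copies, Rpl10-ps3 and Gm7536 first among them. Rpl27a had 62.9, 59.0 and 55.6 CPM in mutant livers and 41.2, 41.3 and 35.6 CPM in control livers, and was called alone (0.59 ± 0.11, edgeR adjusted p = 0.0108) and summed (0.54 ± 0.11, adjusted p = 0.0170).

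**Figure D4:**
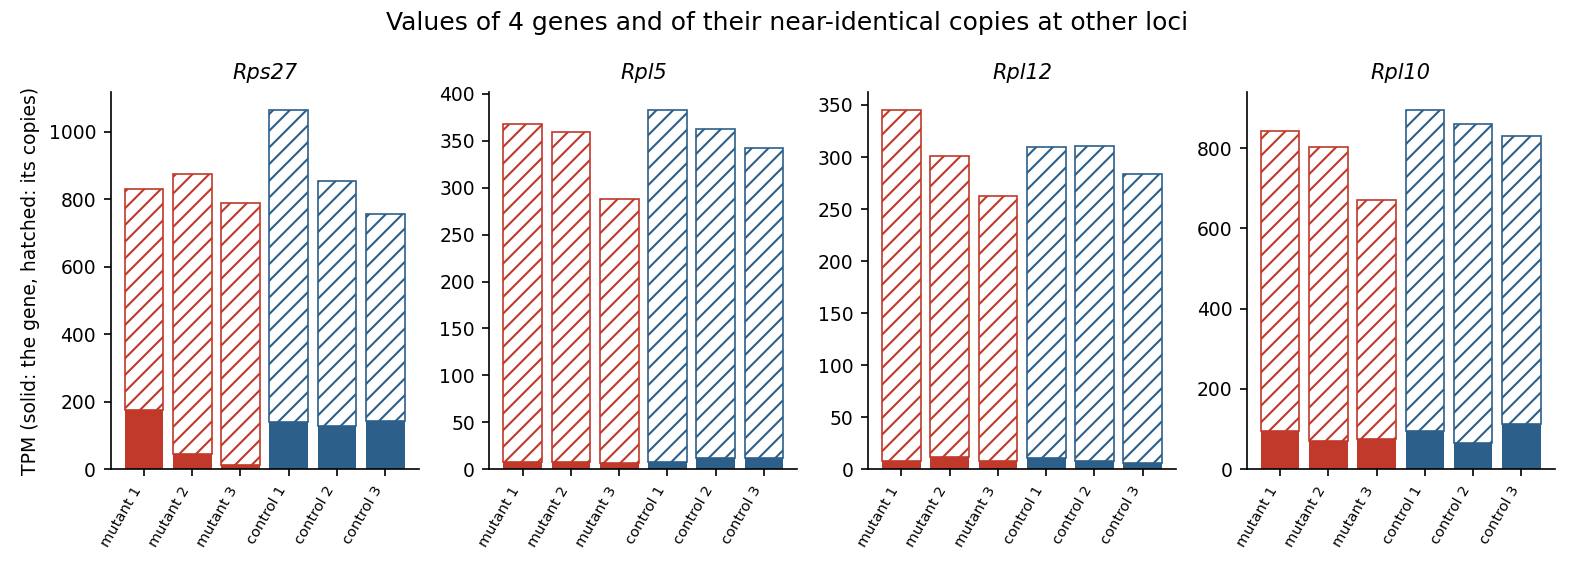
TPM in each library of 4 canonical genes (solid) and of their near-identical copies at other loci (hatched), mutant livers in red and control livers in blue. The solid part is a small share of the bar for Rpl5, Rpl12 and Rpl10, and for Rps27 it is 175, 44.0 and 12.6 TPM in the mutants and 139, 128 and 143 TPM in the controls.

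When each canonical gene was summed with its copies, 41 of the 77 canonical genes rose with TMM scaling, against 37 alone, where 6.67% of all tested rows were called higher and 6.84% lower. Both ways called 36 genes, Rpl13 passed only alone, and 5 passed only in the summed fit, Rpl3, Rpl5, Rpl10, Rpl12 and Rpl15, of which Rpl3 crossed the threshold narrowly (edgeR adjusted p = 0.0492 in the summed fit and 0.0507 alone). The fold changes ran from 0.21 to 0.66 on the log2 scale, against -0.25 to 0.72 alone, and their SD over genes was 0.101 against 0.131. At library totals 0 members were called with the copies included, where 2.06% of all tested rows were called higher and 31.7% lower.

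Among the related symbols, Rpl36al and Rpl7l1 rose and 8 of the 10 tested did not pass. Rpl36al, a paralog of Rpl36a that makes nearly the same protein, had 114, 129.6 and 97.5 CPM in mutant livers and 81.0, 85.7 and 82.9 CPM in control livers (0.45 ± 0.12, edgeR adjusted p = 0.0386). Its partner Rpl36a, on chromosome X, had a log2 fold change of 0.28 ± 0.14 (adjusted p = 0.246). Copies held 58.9% of the summed TPM of Rpl36a, so its value alone is uncertain. Summed with them it stood at 0.30 ± 0.12 (edgeR adjusted p = 0.156). Rpl7l1, a relative of the yeast large subunit assembly factor Rlp7, rose by 0.43 ± 0.12 at an adjusted p just under the threshold (0.0499), and its partner Rpl7 rose by 0.37 ± 0.10 (edgeR adjusted p = 0.0386).
Rpl22l1, the alternative to the RNA-binding protein Rpl22, had 17.7, 15.8 and 19.0 CPM in mutant livers and 14.4, 11.0 and 12.2 CPM in control livers. It stood at 0.48 ± 0.14 (edgeR adjusted p = 0.0626) and Rpl22 at 0.28 ± 0.12 (adjusted p = 0.167), both short of the threshold. Rps4l stood at 0.10 ± 0.18 beside 0.30 ± 0.10 for Rps4x, and Rpl37rt at 0.30 ± 0.36 beside 0.26 ± 0.16 for Rpl37, and all 4 missed the threshold. Rps19bp1, the binding protein that is no part of the ribosome, stood at 0.01 ± 0.21 (edgeR adjusted p = 0.971), with 8.60, 9.03 and 8.12 CPM in mutant livers and 6.59, 11.2 and 7.76 CPM in control livers. Rps23rg1, at 1.06 CPM or less in every library, had the lowest value of the tested members, -0.69 ± 0.50 (edgeR adjusted p = 0.406).

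Fau and Rack1, which lie outside the rule and also make ribosomal parts, had values in the same range. Fau, which encodes the small subunit protein eS30 fused to a ubiquitin-like protein, rose by 0.45 ± 0.12 with TMM (edgeR adjusted p = 0.0486), with 188 ± 14.9 CPM in mutant livers and 138 ± 20.2 CPM in control livers. Rack1, a scaffold on the small subunit, rose by 0.51 ± 0.12 (247 ± 35.2 and 174 ± 9.50 CPM, edgeR adjusted p = 0.0279).

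Translation factors, ribosome biogenesis genes and mitochondrial ribosomal protein genes had medians between the family and the typical gene, and regulators of translation did not. Of 36 translation factors 10 rose with TMM and 0 fell, with a median log2 fold change of 0.25. Eif5a, a factor that helps ribosomes past difficult stretches, rose by 0.53 ± 0.08 (edgeR adjusted p = 0.00605), with 315 ± 13.6 CPM in mutant livers and 218 ± 5.68 CPM in control livers. Eef1d and Eif3i rose by 0.59 ± 0.11 and 0.48 ± 0.10. Of 42 ribosome biogenesis genes 3 rose (Emg1, Nop2 and Rcl1) and 0 fell, with a median of 0.27, and of 78 mitochondrial ribosomal protein genes 5 rose and 0 fell, with a median of 0.25. Over all tested genes 6.64% were called higher and 6.82% lower with TMM, so the counts called higher in both of these lists were near that share. Of 24 regulators of translation, with a median of -0.031, 0 rose and 1 fell, Rps6ka1, a kinase of the ERK pathway, with 12.6 ± 2.62 CPM in mutant livers and 27.9 ± 2.48 CPM in control livers (-1.15 ± 0.16, edgeR adjusted p = 0.00409).
The list nearest to the family was the proteasome, where 22 of 32 genes rose and 0 fell, with a median of 0.43, and at library totals 0 rose and 2 fell, with a median of 0.03. Psmb4, a subunit of the catalytic core, had 144 ± 6.74 CPM in mutant livers and 96.1 ± 7.03 CPM in control livers (0.59 ± 0.09, edgeR adjusted p = 0.00668). At library totals 7 of the 36 translation factors, 7 of the 78 mitochondrial ribosomal protein genes and 14 of the 24 regulators were called lower and 0 of them higher. Over all tested genes 31.5% were called lower and 2.05% higher on that scale. A smaller share of the translation factors, mitochondrial ribosomal proteins and proteasome genes than of all genes was thus called lower, and a larger share of the regulators.

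**Figure D5:**
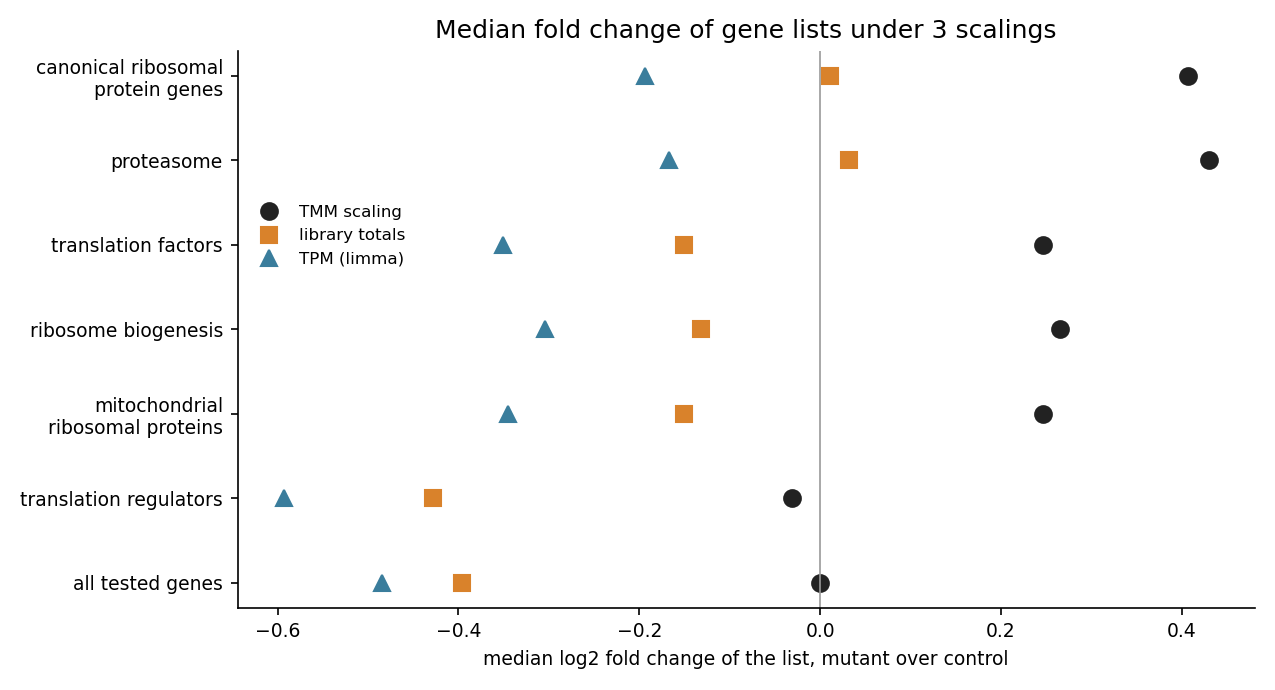
Median log2 fold change, mutant over control, of 6 gene lists and of all tested genes (rows), with TMM scaling (circles), at library totals (squares) and in TPM with limma (triangles). The canonical ribosomal protein genes lie at 0.41, 0.01 and -0.19 and the proteasome at 0.43, 0.03 and -0.17, both to the right of all tested genes at 0.00, -0.40 and -0.48 on the same scale.

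The samples were liver by their markers. With TMM the summed markers of several other cell types differed between the groups, while the endothelial and erythroid sums overlapped. The summed level of 10 hepatocyte markers was 105983 to 116297 TMM-scaled CPM in mutant livers and 96060.4 to 105553 CPM in control livers, and 4 of the 10 were called higher and 0 lower. This direction turned at library totals, where the sum was 91466.9 to 100670.4 CPM in mutant livers and 109986 to 121065 CPM in control livers, and 1 of the 10 was called higher and 3 lower. Over all tested genes 6.64% were called higher and 6.82% lower with TMM, and 2.05% and 31.5% at library totals. The values of the other cell types given next are with TMM. The summed level of 10 stellate cell markers was 95.7 to 136 CPM in mutant livers and 324 to 342 CPM in control livers, with 8 called lower. Macrophage markers summed to 187 to 339 CPM in mutant livers and 398 to 551 CPM in control livers, with 7 of 15 called lower, and lymphocyte markers to 13.0 to 17.9 CPM in mutant livers and 34.9 to 46.3 CPM in control livers, with 2 of 16 called lower. Endothelial markers summed to 114 to 177 CPM in mutant livers and 146 to 271 CPM in control livers, with 3 of 10 called lower. Cholangiocyte markers summed to 32.1 to 47.7 CPM in mutant livers and 62.9 to 91.6 CPM in control livers, with 1 of 5 tested called higher and 1 lower, and erythroid markers to 365 to 640.0 CPM in mutant livers and 394 to 602 CPM in control livers, with 1 of 5 called higher. At library totals 9 of 10 stellate, 13 of 15 macrophage, 4 of 16 lymphocyte and 8 of 10 endothelial markers were called lower and 0 higher. Of the cholangiocyte markers 1 of 5 tested was then called lower and 0 higher, and of the erythroid markers 1 of 5 higher and 0 lower. No marker of these 7 lists was at 0 in all libraries. Fewer cells of a type and less RNA per cell cannot be told apart in bulk tissue. The part of these shifts in the family's values was not tested. Mitochondrially encoded genes took 4.42%, 4.25% and 5.68% of the counts in mutant livers and 5.59%, 5.87% and 5.94% in control livers. Mutant replicate 3 stood nearest to the controls there. In the ribosomal protein family's median it was the lowest mutant library on each scale, and with TMM the nearest to the controls. As a share of counts, its ribosomal protein members took 0.891%, below each control library at 0.941% to 1.04%. A link between these shares was not tested.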

How the data were processed

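Poly(A) RNA of male mouse liver was sequenced in 6 libraries as read pairs of 150 bases on a NovaSeq6000 by a commercial provider, per the labels' protocols. The submitters' processing notes name cutadapt, STAR and build mm10. The sources used here name no counting program, annotation or strandedness, so overlapping or antisense genes cannot be told apart.

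Estimated counts and TPM, 1 value per library for 55487 genes, are as deposited by the authors. Over 10983 genes both tables differed by a fixed factor per gene and per library (largest deviation of the natural log 5.7e-10), and 0 nonzero counts were whole, so counting error is only approximated. Library totals were 35847386 to 43162557 estimated counts.

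After rounding, the estimated counts entered edgeR 4.0.16 under R 4.3.3 (TMM, filterByExpr, quasi-likelihood F-test on group, Benjamini-Hochberg over all 14286 tested genes, called at an adjusted p under 0.05). TPM were tested with limma 3.58.1 on log2(TPM + 1) for genes with at least 1 TPM in 3 libraries. DESeq2 1.42.0 was an alternative. Fold changes are mutant over control, and SE come from the F statistic. Groups followed the genotype labels; these do not say that libraries are separate animals, so p-values reflect only how these libraries vary. The edgeR procedure was run on simulated counts with 2-fold and 4-fold changes in both directions. It recovered 57.7% of the 2-fold and 94.4% of the 4-fold changes, with 4 false calls among 149. The simulation was not built with a shift in library composition or with changes as small as the family's. It therefore does not bear on the choice of scaling.

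Members, lists and tests were chosen with earlier results of these data known. Named genes were the 5 members with the highest TPM, the 8 called with the smallest p, the 3 highest and 3 lowest fold changes, the stalk genes, Rpsa, Rps6, Rpl5, Rpl11, listed paralogs with their partners, Fau, Rack1, Rxra and up to 3 called genes with the smallest p per companion list; 1 further gene the rule named is not reported here. Other members and all copies named were chosen after their values were seen, and 1 list, the mitochondrial ribosomal proteins, was taken by symbol. Copies were found by 31-base words of GENCODE M21 transcripts, whose coordinates are used (94 of 94 members matched by ID).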

Additional observations from a re-analysis of the deposited data

How the results depend on the processing

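The count of 39 members called higher and the median log2 fold change of 0.40 depended on the scaling. At library totals the count was 0 and the median 0.0045, at library totals without the Mup genes 1 and 0.19, and with scaling to the summed canonical genes 0 and -0.013. In limma on log2(TPM + 1), log2(TPM + 0.1) and log2(TPM + 1) without a filter the count higher was 0, the count lower 24, 23 and 11 (63.6%, 63.2% and 28.0% of all genes in those fits), and the median -0.19, -0.20 and -0.19. RLE size factors and upper quartile scaling gave 39 (6.61% and 6.65% of all genes called higher), no filter 46 (4.76%), a CPM filter 38 (7.58%), robust fitting 44 (6.89%) and DESeq2 50 (7.33%), and summing with copies gave 43 (6.67%); the family-wide scaling and the sums with copies were chosen after seeing the data. Leaving out 1 library gave counts of 4 to 54 and medians of 0.32 to 0.48, with the groups' lone pairs sharing 1 estimate of spread. Same-numbered libraries had correlations between -0.0032 and 0.063 in their deviations. These deviations were centred within each group, so the correlations cannot show whether the replicate numbers of the titles pair the libraries. With the replicate block the count was 37 (5.42% of all genes) and the median 0.40.

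The difference in the share of counts, 0.013 percentage points, was 0.158 without the Mup genes and -0.025 to 0.075 with 1 library left out. The difference in the share of TPM, -0.385 percentage points, was 0.405 without the Mup genes and -0.475 to -0.244 with 1 library left out, the smallest size being that without mutant replicate 3. The difference in the subunit ratio, 0.001, was -0.012 to 0.016 with 1 library left out.

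At library totals the lists called higher and lower were 0 and 7 for mitochondrial ribosomal proteins, 0 and 7 for translation factors, 0 and 1 for biogenesis, 0 and 2 for the proteasome and 0 and 14 for regulators. Over all tested genes 2.05% were called higher and 31.5% lower on that scale.

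Single members also changed sign. With TMM 2 of the 87 were below 0, at library totals 42, with scaling to the summed canonical genes 52, and in limma on log2(TPM + 1) 82 of 86. The values given next are those of named members that turned and passed the test in at least 1 of the fits compared. At library totals Rps2 had -0.056 and Rps3a1 -0.00074, and with scaling to the summed canonical genes Rplp1 had -0.0032, Rps2 -0.071 and Rps3a1 -0.023. In limma on TPM the log2 fold changes were -0.12 for Rpl4, -0.0078 or -0.0079 for Rpl27a, -0.067 for Rpl36, -0.087 or -0.088 for Rpl13, -0.15 for Rpl7a, -0.10 for Rps27a, -0.10 for Rpl8, -0.19 for Rplp1, -0.26 for Rps2, -0.053 for Rpl13a, -0.13 for Rplp0, -0.11 for Rps6, -0.24 for Rpl11, -0.50 for Rps27l, -0.16 for Rpl36al, -0.15 or -0.16 for Rpl7l1, -0.21 for Rps3a1, -0.30 for Rps4x, -0.52 or -0.55 for Rps19bp1 and -0.45 or -0.47 for Rps4l, depending on the pseudocount. Beyond the scaling itself, the cause of these changes was not tested. With 3 libraries a group the smallest exact permutation p is 0.1, so shares and ratios cannot pass a threshold of 0.05 here.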
